A study of Arabidopsis thaliana with 10 samples.

Results

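HTR12 (AT1G01370, probe set 261058_at) and HON4 (AT3G18035, probe set 258141_at) are 2 chromatin protein genes of Arabidopsis thaliana, and their transcript levels were followed as cultured cells resumed the cell cycle after a block of DNA replication. The members were chosen by gene symbol, and each was named by 1 probe set, a set of short probes read out as 1 value, so 2 of the 22746 probe sets without controls are described. Cells of MM2d, a fast-dividing suspension culture kept in the dark at 27 °C, were diluted 7 days after subculture and held for 24 h in 4.16 µg/ml aphidicolin, an inhibitor of replicative DNA polymerases. After the drug was washed out, total RNA was sampled at 0, 2, 4, 6, 8, 10, 12, 14, 16 and 19 h and hybridised to ATH1 arrays, with 1 array per time and no replicate. All 10 samples carried the block and the wash, and no untreated culture was compared. The samples are bulk RNA, so a change in the share of cells at one stage and a change in RNA per cell cannot be told apart.

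HTR12 encodes CENH3, the histone H3 variant that replaces ordinary H3 in centromeric nucleosomes and marks the place where the kinetochore, the anchor for spindle microtubules, is built. In Arabidopsis CENH3 is known to be loaded onto centromeres mainly in G2, before mitosis, whereas ordinary replicative histones are made and deposited in S phase. HON4 is a protein with the globular domain of linker histone H1, the histone that binds DNA where it enters and leaves the nucleosome, and the gene table gives HISTONE H1 as its synonym. RefSeq listed 4 transcripts for HTR12 and 2 for HON4, and a single probe set does not separate them.

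Both transcripts were high in the first hours after release and low at the end. The HTR12 signal, a linear intensity with every array brought to the same trimmed mean of 100, read 82.0, 93.9 and 84.9 in the samples of 0, 2 and 4 h. The samples of 6, 8 and 10 h read 64.3, 57.0 and 62.9, and the last 4 samples, from 12 to 19 h, read 40.6, 31.5, 40.1 and 29.4. Thus the first 3 samples were the 3 highest, those from 6 to 10 h lay between, and those from 12 h on were the 4 lowest. The HON4 signal read 237, 492 and 421 at the same first 3 times. The 4 samples from 6 to 12 h read 276, 278, 209 and 192, and the 3 from 14 to 19 h read 175, 173 and 165. HON4 thus stood apart at 2 and 4 h, while the sample taken straight after the wash lay among those of 6 to 10 h. The highest level was 3.19-fold the lowest for HTR12 and 2.98-fold for HON4.

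**Figure D1:**
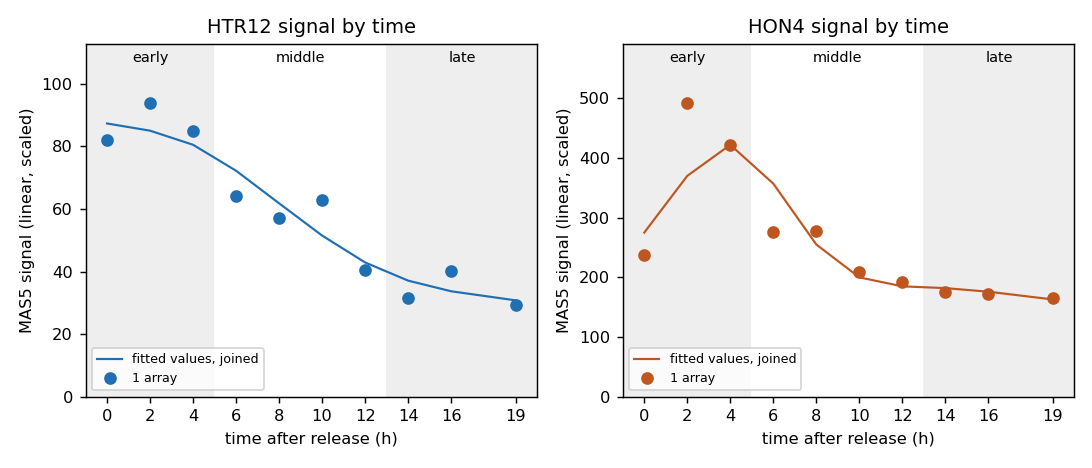
Signal of HTR12 (left) and HON4 (right) on the vertical axis, as scaled MAS5 intensity on a linear scale, against hours after release; each point is 1 array, the line joins the values of the spline fitted to log2 signals, and shading marks the early, middle and late windows. HTR12 steps down from 93.9 at 2 h to 29.4 at 19 h, and HON4 goes from 237 at 0 h to 492 at 2 h before it comes down to 165 at 19 h.

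In a test of the whole course, a spline of time with 4 degrees of freedom fitted with limma to log2 signals of all 13647 tested probe sets, both members were called at an adjusted p under 0.05. HTR12 had a fitted range of 1.5 log2 units (adjusted p = 0.0345) and HON4 one of 1.38 (adjusted p = 0.0455), beside a median of 0.64 over all tested probe sets and 1.64 over the called ones. Of all tested probe sets, 760 or 5.57% were called. The scatter of single arrays about the curve was 0.24 log2 units (SD) for HTR12 and 0.28 for HON4, against a median of 0.22 over all tested. The HON4 curve placed its highest value at 4 h, and the array at 2 h lay 0.41 above it. Both calls were near the threshold. Leaving out the array of 4, 6, 8, 12, 14, 16 or 19 h ended that of HTR12 (adjusted p 0.0575 to 0.113), and leaving out 4, 8, 10, 12, 14, 16 or 19 h ended that of HON4 (0.0734 to 0.21).

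**Figure D2:**
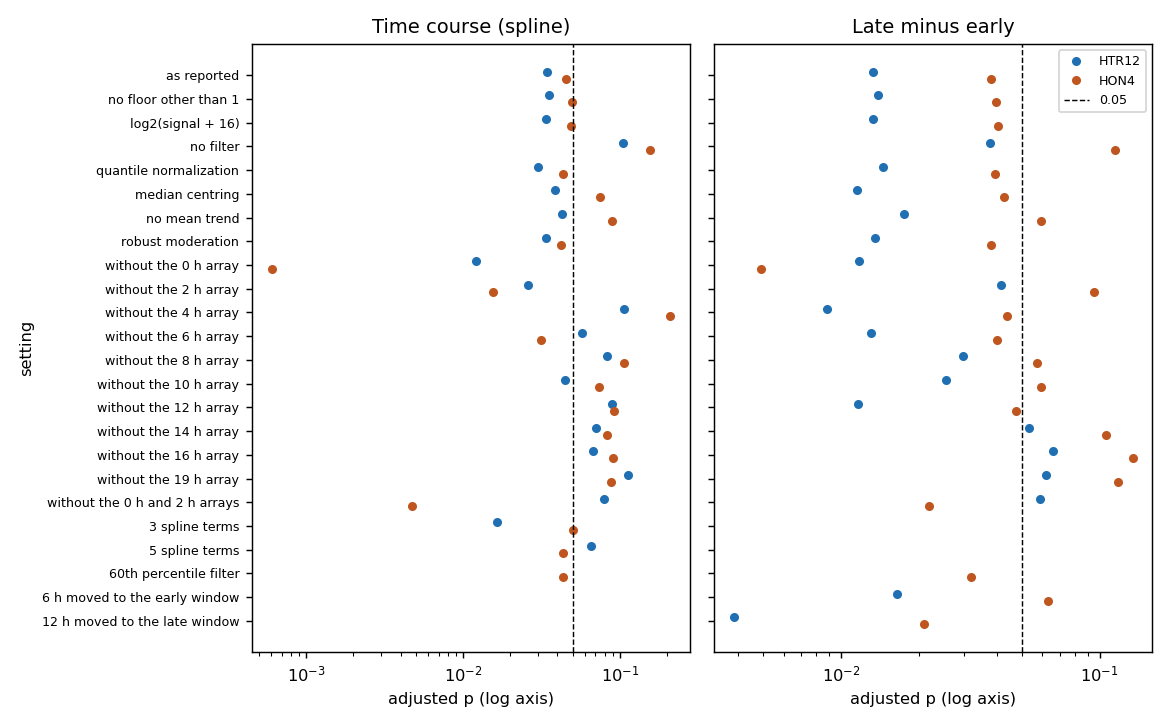
Adjusted p of HTR12 and HON4 (horizontal axis, log scale) in the time course (left) and in late minus early (right) under each setting (vertical axis), with a dashed line at 0.05 and no point where a gene was not tested. HTR12 lies left of the line in 10 of 20 alternatives for the time course and 16 of 20 for late minus early, and HON4 in 10 of 21 and 12 of 21.

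Gaps between neighbouring levels in the order were set beside the SD of single arrays about the curve. A gap holds the noise of both its arrays, so one just above that SD is not shown to exceed noise. For HTR12, 6 of 9 neighbouring levels in the order differed by less than the SD about the curve. The 3 larger gaps lay between 0 h and 6 h (0.35 log2 units), 8 h and 12 h (0.49), and 16 h and 14 h (0.35). The last of these gaps joins samples that are both from the end of the course. For HON4, 8 of 9 neighbours differed by less than the SD, and the single larger gap, of 0.60, lay between 4 h and 8 h.

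The course was then divided into an early window of 3 samples (0 to 4 h), a middle window of 4 (6 to 12 h) and a late window of 3 (14 to 19 h). Samples of a window are different times, so the errors below hold the drift within a window as well as noise. HTR12 fell from a geometric mean of 86.8 in the early window to 33.4 in the late window, a log2 difference of -1.38 (SE 0.21, adjusted p = 0.0133 in limma). HON4 fell from 366 to 171, a log2 difference of -1.10 (SE 0.25, adjusted p = 0.0380). Each early sample lay above each late sample in both genes, as it did in 9.63% of all tested probe sets. Among all tested probe sets 1.8% were called lower in the late window, and 0.982% were called there and in the time course, as both members were. The median difference over all tested probe sets was 0.09. Leaving out 14, 16 or 19 h ended the HTR12 call, with differences of -1.51 to -1.29 (adjusted p 0.0535 to 0.0662). Leaving out 2, 8, 10, 14, 16 or 19 h ended the HON4 call (-1.12 to -0.89, adjusted p 0.0572 to 0.134).

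The values of the middle window are given for each gene, and the difference between the genes was not tested. For HTR12 the middle window, with a geometric mean of 55.3, was apart from both others. Its samples spanned 40.6 to 64.3, below all early and above all late samples. Such an order of early above middle above late with no overlap was seen in 42 of the 13647 tested probe sets, 0.308%. In HTR12 the parting of middle and late rested on a gap of 0.02 log2 units between 12 h and 16 h. That is far under the SD of 0.24 about the curve. Early and middle were 0.35 apart, which is above the SD of single arrays, but that gap holds the noise of both its arrays. HTR12 had a log2 difference of -0.65 (SE 0.20) for middle minus early and of -0.73 (SE 0.20) for late minus middle, and neither was called (adjusted p = 0.0996 and 0.767). For HON4 the middle window, with a geometric mean of 236 and a span of 192 to 278, overlapped the early one through the 0 h sample and lay above all late samples. The latter held in 4.94% of all tested probe sets and, in HON4, rested on a gap of 0.13 between 12 h and 14 h, under the SD of 0.28. Its differences were -0.64 (SE 0.23, adjusted p = 0.154) and -0.46 (SE 0.23, adjusted p = 0.958), and neither was called. The first moved both ways with single arrays, to -0.95 without the 0 h array (adjusted p = 0.0221) and to -0.42 without the 2 h array (adjusted p = 0.425). Over all tested probe sets limma called 0.608% lower in the middle than in the early window. Between late and middle it called 0 or 0% in either direction. There 686 of the 13647 had an unadjusted p under 0.05. The errors hold the drift within each window, so this count cannot show whether probe sets changed between these windows.

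Steps between adjacent times show where each gene moved, with 1 array on either side and no test. The largest step of HON4 was that from 0 to 2 h, 1.06 log2 units or 2.08-fold upward, and 3.96% of tested probe sets had an upward step as large. HTR12 stepped by 0.20 over the same interval, less than the median absolute step of 0.32. The next largest step of HON4 was that from 4 to 6 h, -0.61, which 5.56% of tested probe sets matched. The largest step of HTR12 came later, -0.63 from 10 to 12 h, matched by 2.63%, and its step from 4 to 6 h was -0.40, matched by 11.1%. From 10 h on HON4 changed by at most 0.13 between adjacent times, while HTR12 went down, down, up and down by 0.35 to 0.63.

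**Figure D3:**
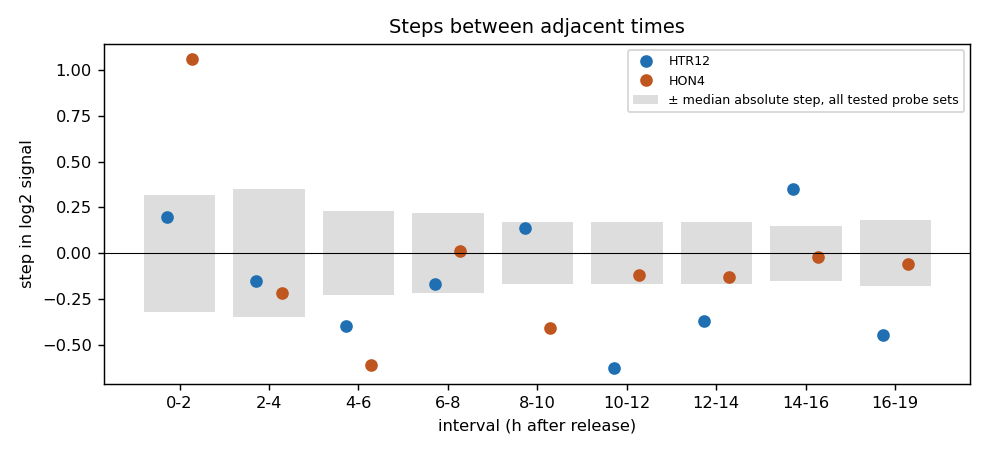
Step in log2 signal (vertical axis) over each interval between adjacent sampling times (horizontal axis) for HTR12 and HON4, with grey bars spanning plus and minus the median absolute step of all tested probe sets. HON4 lies outside the grey bars at 0 to 2 h (1.06), 4 to 6 h (-0.61) and 8 to 10 h (-0.41), and HTR12 at 4 to 6 h (-0.40) and in all 4 intervals from 10 h on.

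Both genes were highest at 2 h and lowest at 19 h. Among all tested probe sets 16.1% were highest at 2 h, 8.73% were lowest at 19 h and 2.15% were both. A further 29.5% were lowest at 2 h, so that array held many extremes in both directions. The 2 h array had the lowest mean correlation with the other arrays (0.864, against 0.912 to 0.946), and its part in the height of the 2 h values was not tested. When each level was read as a percentile within its own array, HTR12 stood at the 70.2nd percentile at 2 h and at the 44.3rd at 19 h, with its lowest place, the 41.8th, at 14 h. HON4 went from the 94.1st percentile at 2 h to the 81.2nd at 19 h. HTR12 was therefore lowest at 14 h on this scale, and also after quantile normalization. Without the 2 h array the late-minus-early difference was -1.32 for HTR12 (adjusted p = 0.0415) and -0.89 for HON4 (adjusted p = 0.0955).

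The nearest relatives of HTR12 are the other histone H3 genes. Of 13 listed, 12 had probe sets. Of these 13 probe sets 4 named 1 gene and the others were shared by several H3 genes that cannot be told apart, and 11 were tested. In limma 6 of the 11 were called in the time course, beside 5.57% of all tested probe sets. In the late window 6 were called lower and 0 higher (1.8% and 2.26% over all tested), with 10 at an unadjusted p under 0.05. Their median late-minus-early difference was -1.26. The largest was -2.74 (SE 0.49, adjusted p = 0.0227), for the probe set shared by AT1G13370 and AT1G75600, which went from 192 at 2 h to 11.5 at 16 h, a value raised to the floor of 12.1 used for low signals. All 5 probe sets shared by the H3.1 genes were called in the time course and 4 of them in the late window. One of these went from 2230 at 2 h to 304 at 14 h (-2.12, SE 0.36, adjusted p = 0.0199). AT1G13370 alone fell by 1.49 (adjusted p = 0.0483). AT1G75600 alone had a difference of -1.67 (adjusted p = 0.0796). The 3 probe sets shared by the H3.3 genes had differences of -0.50 to 0.00 and were not called. MGH3, a histone H3 of male gametes, was at the floor on 7 of 10 arrays and was not tested, nor was AT5G12910, at the floor on 5. Every one of the 11 had a larger step from 0 to 2 h than HTR12, between 0.27 and 2.01. Of the 11, 9 were highest at 2 h. Without the 2 h array, an alternative added after the data were seen, 0 of the 11 were called lower in the late window and 10 were called in the time course. The whole table moved the same way. Over all tested probe sets late-minus-early calls, in either direction, went from 554 to 105 and time-course calls from 760 to 1844.

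Core histones H2B and H4 are given for comparison. Of the listed genes, 8 of 10 for H2B had a probe set of their own and all 8 for H4 shared 5 probe sets. No probe set was matched to the 12 listed H2A genes, so they were not analysed here. All 13 tested probe sets were highest at 2 h, 5 were called in the time course and 7 were called lower in the late window, with a median difference of -1.42. Over all tested probe sets these shares were 16.1%, 5.57% and 1.8%. The called genes with a probe set of their own were HTB1 in the time course (fitted range 0.95) and HTB2 (-1.42), HTB4 (-1.08) and AT2G37470 (-1.56) in the late window, and the rest were H4 probe sets shared by 8 genes. Leaving out the 2 h array gave 11 and 1, and leaving out the 0 h array as well gave 11 and 0. Over all tested probe sets these settings gave 1844 and 105, and 1169 and 343, with late calls in either direction.

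HON4 was set beside linker histones and other proteins with an H1-type globular domain. Of 10 listed genes 5 had a probe set, all 5 were tested and 4 of them are listed by locus code alone. AT1G06760 read 526, 1560 and 621 in the first 3 samples and had its lowest signal, 215, at 14 h. It fell by 1.67 between the early and late windows (SE 0.37, adjusted p = 0.0376). AT2G30620 read 420, 1100 and 690 in those samples and 226, its lowest, at 14 h. It was called in the time course (fitted range 1.81, adjusted p = 0.0361), and its late-minus-early difference was -1.39 (SE 0.38, adjusted p = 0.0630). Both were, like HON4, highest at 2 h, and their log2 signals correlated with those of HON4 at r = 0.90 and 0.91 over the 10 arrays. The others of the list had r with HON4 of -0.14 to 0.22. Among the H3 probe sets r with HON4 reached 0.93, and among those of H2B and H4 it reached 0.92. HIS1-3, the histone H1-3 gene, read 20.8 in the 2 h sample, peaked with 53.0 at 8 h, had its lowest signal of 14.8 at 16 h, and was not called (adjusted p = 0.143). AT1G72740 stayed between 106 and 126 and AT1G17520 between 15.3 and 52.3, and neither was called (adjusted p = 0.747 and 0.909). In all 1 of 5 was called in the time course and 1 lower in the late window (5.57% and 1.8% over all tested), with a median difference of -0.64. Without the 2 h array 2 were called in the time course and 0 in the late window, and leaving out the 0 h array as well gave the same counts. The matching counts over all tested probe sets are those given above for the core histones.

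Since CENH3 serves the kinetochore, HTR12 was also set beside genes of the centromere, the kinetochore and the spindle checkpoint. Of 29 listed, 16 had a probe set and 14 were tested. Of these 6 were called in the time course, beside 5.57% of all tested probe sets. In the late window 1 was called lower and 0 higher (1.8% and 2.26% over all tested), with a median difference of -0.18. The differences ran both ways, from -1.12 to 1.76, with 8 of the 14 below 0 and 8 at an unadjusted p under 0.05 in limma. Of the called genes 5 were highest at 10 h, when HTR12 stood at 62.9. These were the Aurora kinases AUR1, AUR2 and AUR3 and the checkpoint genes BUBR1 and BUB3.1. AUR1 was at 97.9 at 0 h and 555 at 10 h, and AUR3 at 86.8 and 213. Late-minus-early differences of these 5 lay between 0.11 (AUR3) and 1.76 (BUBR1), none of them called. The sixth, AT4G39630, was high early. Its first 3 samples read 126, 131 and 159, that of 10 h read 111 and the last read 52.7, and it fell by 1.12 between the early and late windows (SE 0.19, adjusted p = 0.0184).

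The other 8 tested genes of that list were not called in the time course. AT3G54630 had a late-minus-early difference of -1.07 (SE 0.28, adjusted p = 0.0546) and AT3G48210 one of -0.70 (SE 0.22, adjusted p = 0.101). Haspin, a histone H3 kinase, had a difference of -0.51 and AT3G27520 one of -0.50. AT5G10710 (-0.42), BUB3.2 (-0.21), AT1G78790 (-0.16) and AT4G37210 (0.03) were closer to 0. WYR and AT3G08880 had mean signals of 26.5 and 20.4, under the filter of 26.8, and were not tested.

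**Figure D4:**
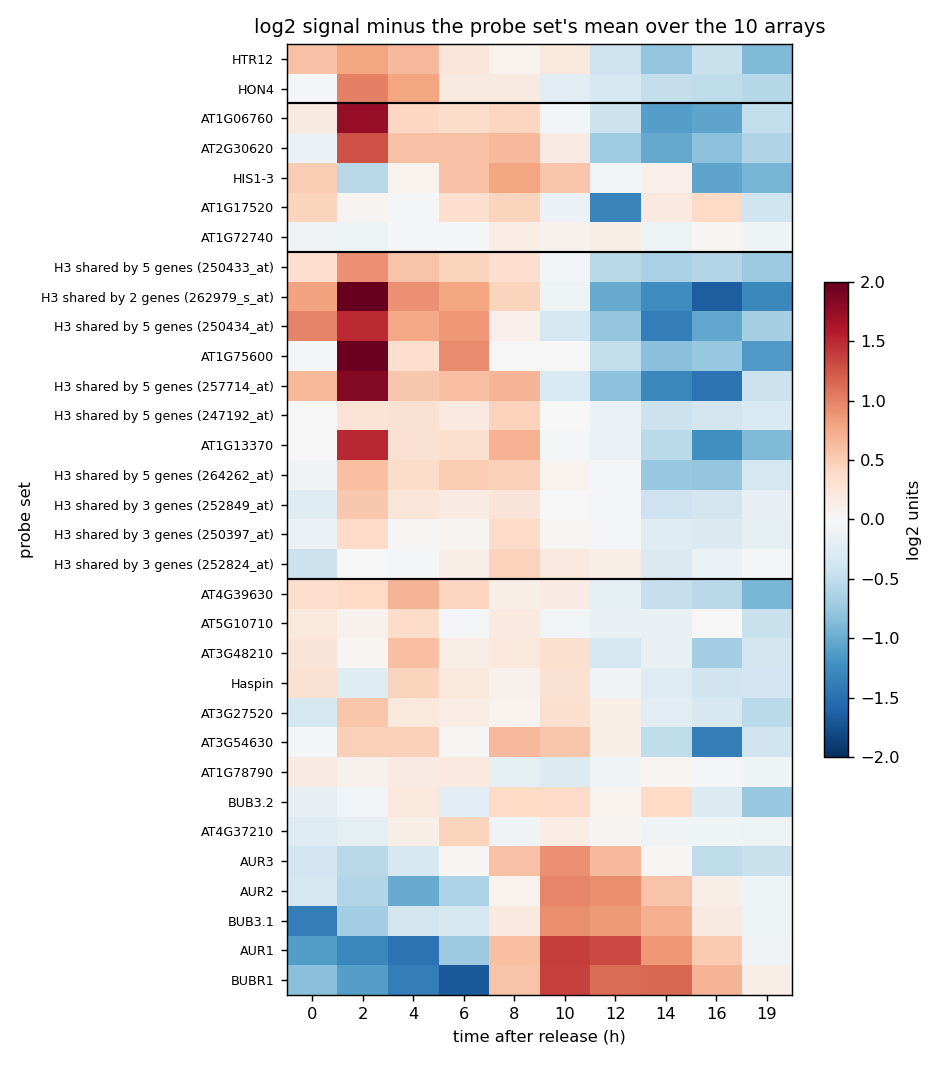
Log2 signal of each tested probe set minus its own mean over the 10 arrays, in colour from -2 to 2 log2 units, by hours after release; from top to bottom HTR12 and HON4, linker histones and related proteins, other histone H3, and centromere and kinetochore genes, each list ordered by its correlation with HTR12. HTR12 and AT4G39630 step down over the course, AT1G06760, AT2G30620 and several H3 probe sets stand out at 2 h, and AUR1 to AUR3, BUBR1 and BUB3.1 are highest at 10 h.

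Smaller lists of cell cycle and marker genes were looked at as well, and the stage at which either member is made was not tested. All 6 tested genes of G2 and mitosis were called in the time course, beside 5.57% of all tested probe sets. Their correlations with HTR12 were -0.74 to -0.48, and 5 of the 6 were highest at 10 h (5.35% over all tested). These were TOPII, topoisomerase II, the HMG-box genes 3xHMG-box1 and 3xHMG-box2, KINESIN-12B and UBC19, and UBC20 was highest at 12 h. TOPII had its lowest signal, 43.3, at 4 h and its highest, 751, at 10 h, and ended at 157. Of 3 tested genes of the E2F pathway and DNA replication 0 were called in the time course (1 at an unadjusted p under 0.05). FBL17, an F-box gene of cell cycle control, read 475 to 547 in the early window, 227 to 258 in the middle window and 261, 358 and 373 in the late window. In limma it fell by 1.06 from the early to the middle window (adjusted p = 0.0137), and its late-minus-early difference was -0.62 (SE 0.14, adjusted p = 0.0417). Leaving out the 2 h array, an alternative added after the data were seen, gave -0.99 (adjusted p = 0.0411) and -0.55 (adjusted p = 0.105), so the late call was lost. Leaving out the 0 h array as well left only the 4 h sample in the early window and gave -0.98 and -0.54. Of the histone chaperones, ASF1B and SGA2 were tested and 0 were called in the time course or in the late window (limma, 0 at an unadjusted p under 0.05 in each). TERT and STN1, telomere genes, had mean signals of 9.14 and 16.0 and were not tested. Leaf photosynthesis markers were measurable in these dark-grown cells. Of 5 listed, 3 had a probe set and all 3 were called in the time course. RCA, rubisco activase, was 0.94 higher in the late than in the early window (SE 0.17, adjusted p = 0.0227 in limma). It was one of 2.26% of probe sets called higher there. RCA was highest at 8 h (299), and its middle-minus-early difference was 1.07, so the rise came before the late window. PSAE-1 was under the floor on the first 2 arrays, and LHCB4.1 was above it on all. Their correlations with HTR12 were -0.72 to -0.67 and their part in its fall was not tested. Without the 0 h and 2 h arrays 1 of the 3 was called in the time course and 0 in the late window.

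The log2 signals of HTR12 and HON4 ran together, with r = 0.85 (Spearman rho 0.90) over the 10 arrays and r = 0.89 without those at 0 and 2 h. These points are times of 1 course and share any slow drift. An r with HTR12 at least as high was found in 0.85% of tested probe sets, and one with HON4 in 1.51%. Other histones came near that r in their medians, with a wide range among the H3 probe sets. Over the 11 tested H3 probe sets the median r was 0.87 with HON4 (0.20 to 0.93) and 0.79 with HTR12 (0.07 to 0.94). Over the 13 of H2B and H4 the medians were 0.87 (0.75 to 0.92) and 0.82 (0.64 to 0.90). Among the 7671 other tested probe sets that name 1 gene, the 5 most like HTR12 were AT1G04970 (r = 0.96), AT4G39630, AT5G01350 and AT3G20490 (each 0.94) and AT1G62422 (0.93). AT4G39630 is the kinetochore list member described above. AT3G20490 came down from 502 at 2 h to 165 at 19 h, whereas AT5G01350 moved only between 314 and 415, so a like shape did not mean a like size. The least like were AT3G49320 (r = -0.96), AT3G28720 (-0.95) and DI21 (-0.94). For HON4 the 5 most alike were AT1G18720 (r = 0.98), AT1G04300 (0.96), NTRC, a plastid thioredoxin reductase, and AT5G44380 and AT2G04400 (each 0.95). All 5 were highest at 2 h, and AT5G44380 was under the floor at 0 h and at 19 h. The least like were AT3G08030, GH9B8, a family 9 glycosyl hydrolase, and AT4G36010 (each r = -0.98). All 3 were lowest at 2 h, as were 29.5% of all tested probe sets.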

How the data were processed

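Per the submitters' processing notes, the deposited values come from MAS5, whose version is not given in the sources used here. The deposited intensity values are linear, 1 for each probe set, and their trimmed means of 99.3 to 99.4 in all arrays show a common scaling. Total RNA was labelled with biotin, per the labels. Control probe sets (64 of 22810) were left out. All arrays were brought to a trimmed mean of 100, leaving out 2% at each end. Signals below 12.1, the 25th percentile over the whole table, were raised to that floor before log2 was taken, and neither member reached that floor. Probe sets with a mean signal above the 40th percentile (26.8) were tested, 13647 in all. The precision is limited by the number of arrays. The arrays had median signals of 35.2 to 43.9, and 23.2% to 26.9% of their values were at the floor.

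Across all tested probe sets, limma 3.58.1 in R 4.3.3 fitted a natural cubic spline of time (4 degrees of freedom, moderated F test) and, separately, 3 window means with their contrasts. Variances were moderated by eBayes with a trend on the mean, p-values were adjusted after Benjamini and Hochberg, and calls needed an adjusted p under 0.05. P-values measure only the spread between samples of 1 course.

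Genes were named from the platform annotation, updated by Entrez gene ID from a RefSeq table of assembly TAIR10.1, and lists were matched by locus code. A listed probe set had all its genes in that list. Named were the members, all called members of the lists, the uncalled members of the H3, linker histone and kinetochore lists with a probe set naming 1 gene, and by Pearson r of floored log2 signals the 5 most and 3 least alike. Outside that rule, ASF1B, SGA2, TERT and STN1 are named as the measured members of short lists, and the probe sets shared by several histone genes are given as counts with examples, both chosen after their values were seen. The members and lists were chosen with earlier results of these data known. Alternatives changed the scaling, floor, filter, moderation, spline terms, window bounds and arrays used.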

Additional observations from a re-analysis of the deposited data

How the results depend on the processing

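With single arrays per time and 5 residual degrees of freedom, calls here turn on single arrays, while the direction of both members' window differences was the same in every alternative run. No paired analysis was possible because each time has 1 sample and all carry the same replicate number. The time course of HTR12 passed in 10 of 20 alternatives (adjusted p 0.0122 to 0.113), and that of HON4 in 10 of 21 (0.000605 to 0.21). Leaving out 1 array gave fitted ranges of 1.24 to 1.63 for HTR12 and 1.09 to 1.60 for HON4. With no filter on mean signal the ranges were 1.5 and 1.38 (adjusted p = 0.105 and 0.156). HTR12 was also lost without the 0 h and 2 h arrays (1.40, adjusted p = 0.0788) and with 5 spline terms (1.52, 0.0656), and HON4 with median centring (1.41, 0.0749), no mean trend (1.38, 0.0891) and 3 spline terms (1.16, 0.0503). HTR12 was not tested with the 60th percentile filter, since its mean signal was too low. The late-minus-early difference of HTR12 passed in 16 of 20 alternatives and was -1.51 to -1.29 with 1 array left out and -1.35 without the 0 h and 2 h arrays (adjusted p = 0.0588). That of HON4 passed in 12 of 21 and was -1.41 to -0.89 with 1 array left out, -1.10 with no filter (0.115) or no mean trend (0.0592), and -1.0 with 6 h moved to the early window (0.0633). Middle minus early, HON4 ranged from -0.95 to -0.42 and HTR12 from -0.72 to -0.50 with 1 array left out. Late minus middle, these ranges were -0.56 to -0.38 and -0.88 to -0.64. HTR12 was lowest at 14 h rather than 19 h by percentile within each array and after quantile normalization. The cause of these losses was not tested.

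Counts over all probe sets moved most. The 760 of the time course became 236 to 2901 with 1 array left out, 281 with no filter, 462 with no mean trend and 1169 without the 0 h and 2 h arrays. The 554 of late minus early became 1 to 1736 with 1 array left out (lowest when 16 h and highest when 4 h was dropped), 172 with no filter, 245 with no mean trend, 343 without the 0 h and 2 h arrays, 266 with 6 h moved to the early window and 1073 with 12 h counted as late. The 154 of middle minus early became 0 to 1861 with 1 array left out, 0 with no filter (limma), 263 with the 60th percentile filter, 101 with median centring, 71 with no mean trend, 92 without the 0 h and 2 h arrays and 52 with 12 h moved. Late minus middle stayed at 0. Of the lists, other histone H3 had 10 members called in the time course without the 2 h array and 0 called lower without it or without the 0 h and 2 h arrays. For H2B and H4 these were 11 and 11, and 1 and 0. For linker histones they were 2 and 2, and 0 and 0, and for the E2F pathway 0 and 0 were called lower. Leaf markers had 1 called in the time course and 0 called higher without the 0 h and 2 h arrays. Over all probe sets, leaving out the 2 h array gave 1844 calls in the time course and 105 in late minus early. The list counts were added after the data were seen.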

Other observations

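Genes next to HTR12 and HON4 in the chromosome order of the gene table were looked at for comparison. The 2 closest genes on each side with a probe set naming 1 gene were taken, a choice made after the main results were seen. Of these 8 genes, 4 were tested. In limma 0 were called in the time course (1 at an unadjusted p under 0.05, lowest adjusted p = 0.146) and 0 in late minus early (0 at an unadjusted p under 0.05, lowest adjusted p = 0.374). AT3G18060, which lies 4 genes after HON4, stayed between 226 and 293 with a late-minus-early difference of -0.10. AT1G01320, which lies 6 genes before HTR12, stayed between 21.9 and 48.5 with a difference of 0.23.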
